A study of Mus musculus with 9 samples.

Results

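Hox genes encode homeodomain transcription factors that lie side by side in 4 chromosomal clusters, Hoxa to Hoxd. All protein-coding genes named Hox followed by a cluster letter and a paralog number were taken, which gave 39 genes, out of 22262 genes that had a count in one library or more. Members of one paralog group hold the same place in different clusters. Genes at the low-numbered end of a cluster are active toward the head and early in the embryo, and genes at the high-numbered end toward the tail. In the gut, Hox genes help to set the identity of successive segments, largely in the mesenchyme that becomes muscle and connective tissue, and Hoxb13 is known from the epithelium of the distal colon.

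The study asked how an enriched environment acts on the gut of mice, and colon RNA of its wild-type mice is described here, without the transgenic mice of the study. All mice were C57BL/6N females aged 12 months, allotted at random to an environment. The 4 WT_SE mice (replicates 1, 2, 3 and 5) lived in standard cages. The 5 WT_EE mice (replicates 1 to 5) lived in larger cages with more companions, extra bedding and nesting material. Those cages also held objects of varying shape that were rearranged, and running wheels. Mice of an environment shared cages, and which mice lived together is not given. An effect of the cage therefore cannot be told apart from that of the environment. The tests below treat each mouse as independent. A piece of the upper colon was flushed, rinsed and frozen, and no parting of its layers is described, so that each library is taken to mix epithelium, muscle, connective tissue, nerve and other cells. In such bulk tissue, fewer cells of a type and less RNA per cell cannot be told apart.

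Transcripts were sequenced next to their poly(A) tail and counted by unique molecular identifiers, short random tags that let copies of a molecule be counted once. A count therefore stands for a molecule and does not grow with transcript length, and levels of different Hox genes can be set beside each other on this scale. Libraries held 295535 to 454043 counts, with a median of 368997. Between 414 and 821 of these fell on Hox genes, or 0.125% to 0.191% of a library. Levels are given as CPM, counts scaled to a common library total with TMM normalization, and differences between values of 3 counts or fewer are not read. That floor corresponds to 6.48 to 10.5 CPM on this normalized scale, depending on the library. Intervals cover counting error only.

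The 9 libraries were not alike before environments were compared. Slc10a2, the ileal bile acid transporter, which is known to be high toward the small intestine, had 103 to 117 counts in WT_SE 2, WT_SE 3, WT_EE 1 and WT_EE 3, and 3 to 26 counts in the other libraries. The ileal bile acid binding protein gene Fabp6 had 14 to 34 counts in the same 4 libraries and 0 to 5 in the others. The small intestinal factor Gata4 had at most 2 counts in any library. The distal colon marker Prac1, a neighbour of Hoxb13, was not among the genes listed for any library and is taken as 0. The names of the libraries of WT_SE 1 and WT_SE 3 end differently from the other 7 (L3 against L2), and no WT_EE library has that ending. Fat marker genes summed to 402 CPM in WT_SE 1 and to 24.6 to 142 CPM in the other libraries.

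Of the 39 Hox genes, 35 had a count in at least 1 library, 26 had more than 3 counts in at least 1 library, and 11 had more than 3 counts in every library. Hoxc12, Hoxd1 and Hoxd12 were among those without a count. The Hoxa cluster on chromosome 6 gave 47.2% of the 5074 Hox counts and the Hoxb cluster on chromosome 11 gave 43.7%. The Hoxd cluster on chromosome 2 gave 7.23%, and the Hoxc cluster on chromosome 15 gave 1.81%. Above the floor in at least 1 library were 10 of 11 Hoxa genes, 9 of 10 Hoxb genes, 5 of 9 Hoxd genes and 2 of 9 Hoxc genes. By that measure the colon read out both main clusters almost from end to end. Most of the Hoxc cluster was at or under the floor. Above the floor in at least 5 libraries were 8 of 11 Hoxa genes, 9 of 10 Hoxb genes, 3 of 9 Hoxd genes and 1 of 9 Hoxc genes.

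**Figure D1:**
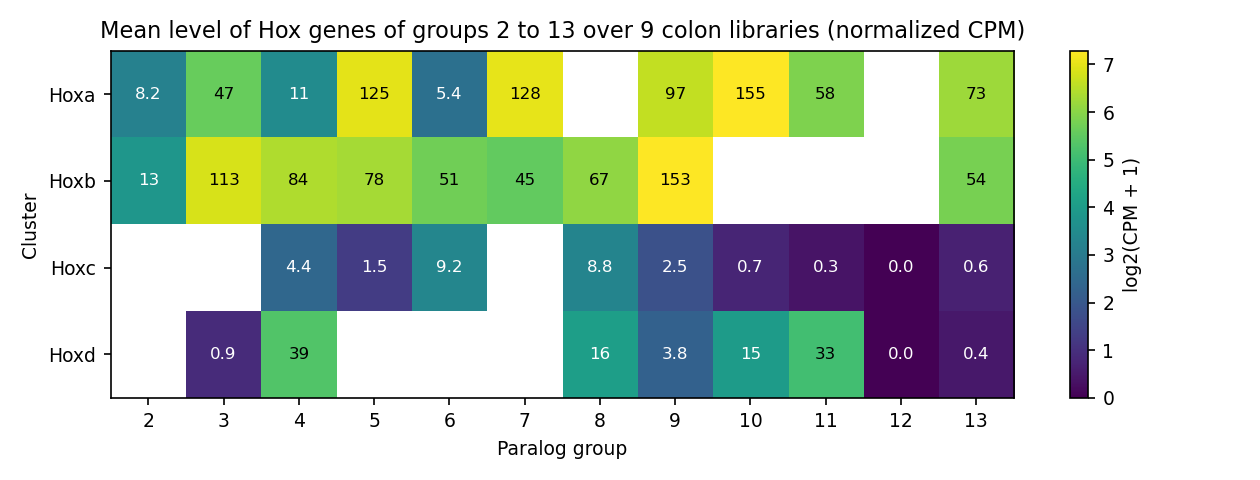
Mean normalized CPM over the 9 libraries for the Hox genes of paralog groups 2 to 13, with clusters from top to bottom and paralog groups from left to right. Colour shows log2(CPM + 1), and white squares are paralogs that the mouse does not have. Hoxa10 (155 CPM) and Hoxb9 (153 CPM) are highest, and the Hoxc genes stay under 10 CPM.

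By paralog group, the highest summed level was that of group 9 (Hoxa9, Hoxb9, Hoxc9 and Hoxd9), with a mean of 256 CPM and a range of 197 to 320 CPM over the libraries. Group 5 followed with 205 CPM (143 to 320), then group 7 with 173 CPM (123 to 204), group 10 with 171 CPM (77.8 to 244) and group 3 with 161 CPM (90.6 to 248). These ranges overlap, so the order among the groups does not hold in every library. Hoxb1, which patterns the hindbrain, had 1 count in all, and group 12 had none. Group 13, the last of the series, had 128 CPM with a wide range, from 30.6 to 262 CPM. Nearly all of it came from Hoxa13 (241 counts) and Hoxb13 (170 counts), while Hoxc13, a gene of hair and nail, had 2 counts and Hoxd13, a gene of digits and the anal sphincter, had 1.

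The summed level of all 39 Hox genes ranged from 1231 to 1896 CPM, with 1533 ± 251 CPM in WT_SE (SD, n = 4) and 1478 ± 195 CPM in WT_EE (SD, n = 5). It was 1464 to 1896 CPM in the 4 libraries with more than 100 counts of Slc10a2, and 1231 to 1451 CPM in the others. The make-up of that sum varied more. The Hoxa cluster held 18.7% of Hox counts in WT_SE 3 (95% exact binomial interval 15.1% to 22.7%) and 23.5% in WT_SE 2 (20.4% to 26.9%), but 64.2% in WT_SE 5 (59.7% to 68.5%) and 69.7% in WT_EE 5 (65.6% to 73.6%). In WT_EE 3 and WT_EE 1 it held 36.3% and 43.1%, and in WT_SE 1, WT_EE 2 and WT_EE 4 it held 55.6%, 60.4% and 67.0%. The 4 libraries with more than 100 counts of Slc10a2 were those with the 4 lowest Hoxa shares. The Hoxd cluster ran the other way, at 16.4% of Hox counts in WT_SE 2, 9.70% in WT_SE 3, 9.55% in WT_EE 3 and 8.28% in WT_EE 1, and 2.26% to 4.68% in the other libraries.

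**Figure D2:**
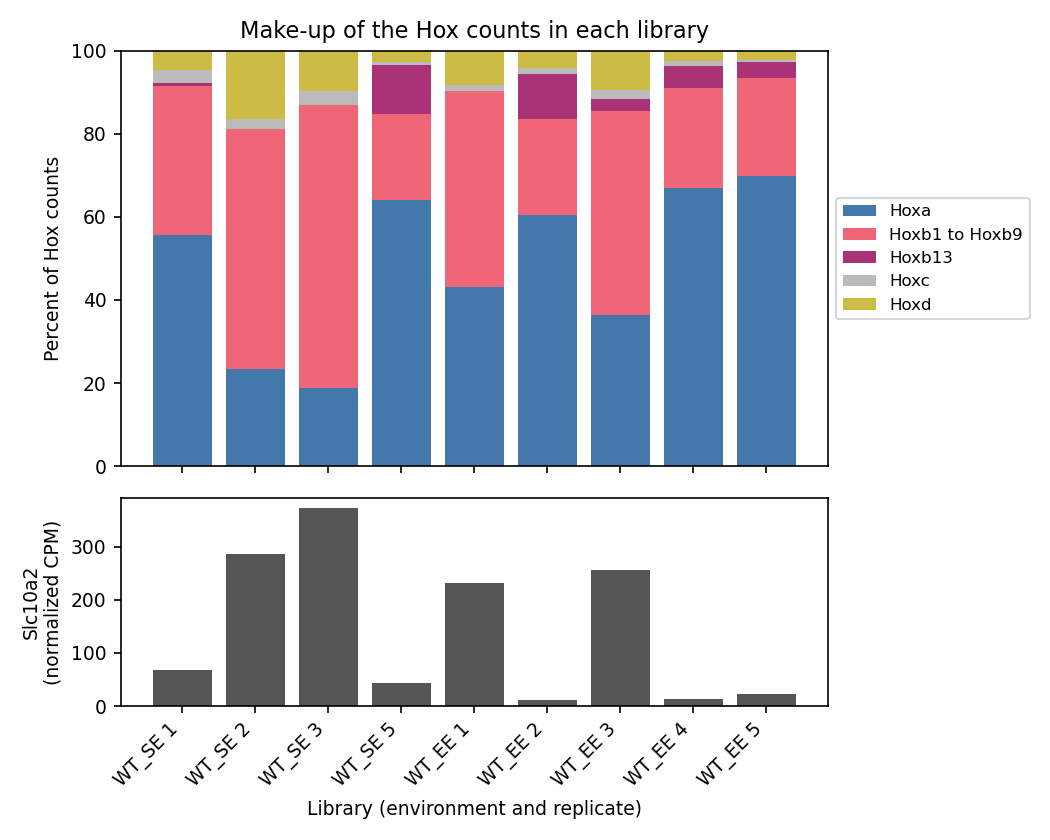
Share of each library's Hox counts from the Hoxa, Hoxb, Hoxc and Hoxd genes, in percent, with Hoxb13 drawn apart from Hoxb1 to Hoxb9, above the level of Slc10a2 in normalized CPM. The share of the Hoxa cluster lies between 18.7% and 69.7% and is lowest in WT_SE 3 and WT_SE 2, where Slc10a2 is highest.

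Genes of paralog groups 9 to 13, the posterior genes, made up 44.1% of Hox counts on average over the 9 libraries. Their share was 46.0%, 27.8%, 29.6% and 57.1% in WT_SE 1, 2, 3 and 5, and 37.3%, 57.2%, 33.3%, 54.4% and 54.5% in WT_EE 1 to 5. The environments overlapped, with 40.1% ± 14.02 in WT_SE (SD, n = 4) and 47.3% ± 11.2 in WT_EE (SD, n = 5). With posterior genes counted from group 10 instead, the mean share was 26.9%.

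The Hox genes varied more between libraries than genes in general. For the 21 Hox genes with more than 3 counts in at least 5 libraries, the median biological coefficient of variation, the spread between mice beyond counting error that edgeR estimates within environments, was 31.0%, against 15.8% over the 11634 genes that met the same minimum. For 12 of these 21 genes it was above 28.6%, the 95th percentile of those 11634 genes. The ratio of variance to mean, which is near 1 for pure counting error, had a median of 7.02 for the 21 Hox genes and 1.37 for the same 11634 genes. Of the 21, Hoxb13 varied most (75.2%), followed by Hoxd4 (51.8%) and Hoxb6 (45.1%). Hoxb9 (14.1%), Hoxa3 (15.3%) and Hoxa5 (16.8%) varied least. In what follows, levels are in CPM and stand in the order WT_SE 1, 2, 3 and 5, then WT_EE 1 to 5.

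**Figure D3:**
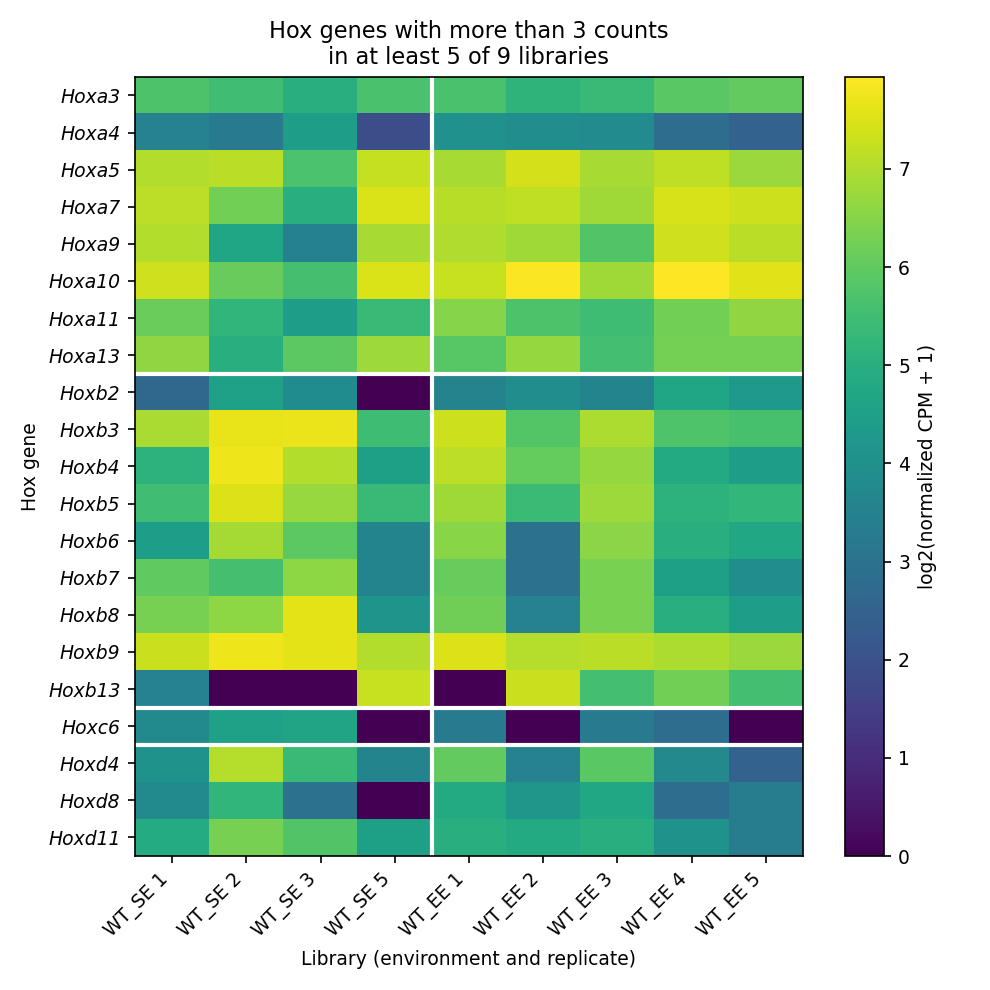
Level of the 21 Hox genes with more than 3 counts in at least 5 of the 9 libraries, as log2(normalized CPM + 1), with genes from top to bottom by cluster and paralog number and libraries from left to right. White lines part clusters and environments. Hoxb3 to Hoxb6 and Hoxd4 are brightest in WT_SE 2, WT_SE 3, WT_EE 1 and WT_EE 3, and Hoxb13 is dark in WT_SE 2, WT_SE 3 and WT_EE 1.

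Among the anterior genes, of paralog groups 1 to 3, Hoxa3, which is needed for thymus and parathyroid, was one of the most even. It stood at 52.2, 44.6, 30.4 and 49.2 in WT_SE and 49.7, 34.9, 39.3, 58.8 and 64.8 in WT_EE. Its paralog Hoxb3 stood at 120, 203, 206 and 43.7 in WT_SE and 162, 55.8, 125, 52.6 and 48.6 in WT_EE. Hoxb3 was thus high in the 4 libraries rich in Slc10a2 and in WT_SE 1, and 43.7 to 55.8 CPM in the other 4, with both environments on either side. Hoxb2 was low, at 5.22, 22.3, 13.5 and 0 in WT_SE and 10.8, 13.9, 10.9, 24.7 and 18.5 in WT_EE. Hoxa2, which patterns the hindbrain and the second branchial arch, had 0 to 6 counts, and Hoxd3 had at most 2.

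The central genes of the Hoxb cluster, of groups 4 to 8, were mostly high and low in the same libraries. Hoxb4, known for its action on blood stem cells, stood at 33.9, 212, 129 and 21.9 in WT_SE and 140, 66.2, 103, 27.8 and 20.8 in WT_EE. Hoxb5, which takes part in forming the enteric nervous system, stood at 44.4, 181, 105 and 41.0 in WT_SE and 110, 41.8, 109, 34.0 and 37.0 in WT_EE. Both were highest in WT_SE 2, and both exceeded 100 CPM in the 4 libraries rich in Slc10a2 and in none of the other 5. Hoxb6 stood at 20.9, 117, 60.9 and 10.9 in WT_SE and 90.7, 6.97, 94.0, 30.9 and 25.5 in WT_EE. Hoxb7 stood at 62.6, 47.3, 94.7 and 10.9 in WT_SE and 66.9, 6.97, 80.9, 21.6 and 13.9 in WT_EE. Hoxb7 departs from its neighbours in WT_SE 1, which lay above WT_SE 2 for this gene. Hoxb8, whose loss in mice leads to excessive grooming, stood at 78.3, 94.7, 196 and 16.4 in WT_SE and 73.4, 10.5, 80.9, 30.9 and 20.8 in WT_EE. It peaked in WT_SE 3, not in WT_SE 2, and WT_SE 1 again stood with the higher libraries.

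Hoxd4, of the same paralog group as Hoxb4 but on another chromosome, followed Hoxb4 in its order of libraries at the top. It stood at 15.7, 131, 40.6 and 10.9 in WT_SE and 64.8, 10.5, 59.0, 12.4 and 4.63 in WT_EE, so that WT_SE 2 and WT_EE 1 were the 2 highest for both genes. The annotation lets Hoxd4 share 388 exon bases with Hoxd3, and Hoxc5 share 166 with Hoxc10, so counts of these pairs are uncertain. Hoxd8 stood at 13.1, 36.2, 6.76 and 0 in WT_SE and 28.1, 17.4, 26.2, 6.19 and 9.26 in WT_EE. The Hoxc genes of these groups were barely counted. Hoxc6 stood at 13.1, 22.3, 23.7 and 0 in WT_SE and 8.64, 0, 8.74, 6.19 and 0 in WT_EE, with at most 8 counts in a library. Hoxc8, which specifies motor neurons of the forelimb, had 9 counts in WT_SE 1 and 1 to 4 elsewhere, and Hoxc4 and Hoxc5 had at most 3.

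The central genes of the Hoxa cluster did not share that pattern. Hoxa5, which acts in lung and gut development, stood at 131, 136, 50.7 and 150 in WT_SE and 119, 171, 118, 145 and 106 in WT_EE. Without WT_SE 3, where it was lowest, its values spanned only 106 to 171 CPM. Hoxa7 stood at 141, 75.2, 30.4 and 180 in WT_SE and 134, 143, 111, 176 and 162 in WT_EE, so that WT_SE 3 and WT_SE 2 were the lowest. Hoxa4 was near the floor, at 10.4, 8.35, 20.3 and 2.73 in WT_SE and 15.1, 13.9, 13.1, 6.19 and 4.63 in WT_EE, and Hoxa6 had 0 to 5 counts. The antisense gene Hoxaas3 overlaps Hoxa3 to Hoxa7 on the opposite strand and had 14 to 43 counts. Whether the deposited counting used the strand is not given in the sources used here, so molecules of these genes and of Hoxaas3 may not be told apart.

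Of the posterior Hoxa genes, Hoxa9, which acts in blood stem cells, went down to 3 counts in WT_SE 3. It stood at 131, 25.1, 10.1 and 118 in WT_SE and 125, 112, 54.6, 164 and 137 in WT_EE. Hoxa10, which acts in the uterus, stood at 164, 66.8, 47.3 and 180 in WT_SE and 153, 237, 111, 244 and 192 in WT_EE. For both genes WT_SE 3 was lowest, WT_SE 2 next and WT_EE 3 after it, while WT_EE 1, a library rich in Slc10a2, had levels like those of WT_SE 1. Hoxa11, a gene of kidney, limb and uterus, stood at 70.5, 36.2, 20.3 and 41.0 in WT_SE and 88.5, 52.3, 43.7, 74.2 and 97.2 in WT_EE. Hoxa13, which is needed for the hindgut and the urogenital tract, stood at 96.6, 30.6, 60.9 and 109 in WT_SE and 58.3, 101, 45.9, 77.3 and 76.4 in WT_EE. Hoxa13 was at 30.6 CPM or more in each library, including those without a count of Hoxb13.

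Hoxb13 was the member that came closest to an on or off pattern. It lies 74.0 kb from its nearest Hox neighbour, Hoxb9, at chr11:96194316-96197447. It stood at 10.4, 0, 0 and 153 in WT_SE and 0, 157, 45.9, 74.2 and 46.3 in WT_EE, from 4, 0, 0 and 56 counts and 0, 45, 21, 24 and 20 counts. The zeros of WT_SE 2, WT_SE 3 and WT_EE 1 allow at most 10.3, 12.5 and 7.96 CPM (95% exact Poisson limit), below the lower limits of 28.3 CPM or more in the 5 libraries with 20 or more counts. There was no plain opposition with Slc10a2, since WT_EE 3 had 117 counts of Slc10a2 and 21 of Hoxb13, and WT_SE 1 had 26 counts of Slc10a2 and 4 of Hoxb13. Hoxb9, at 157, 214, 193 and 128 in WT_SE and 184, 132, 138, 124 and 106 in WT_EE, spanned only a 2.01-fold range.

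Hoxd10 and Hoxd11 had their 4 highest values in the 4 libraries rich in Slc10a2, unlike their Hoxa paralogs, though for Hoxd11 those of WT_EE 1 and WT_EE 3 were close to WT_SE 1. Hoxd11 stood at 28.7, 78.0, 54.1 and 21.9 in WT_SE and 30.2, 27.9, 30.6, 15.5 and 9.26 in WT_EE, highest in the very libraries, WT_SE 2 and WT_SE 3, where Hoxa11 was lowest. Hoxd10 had 22 counts in WT_SE 2, 12 in WT_EE 3, 8 in WT_SE 3 and 5 in WT_EE 1, and at most 2 in the other libraries. Hoxd9 had at most 4 counts, and Hoxc9, Hoxc10 and Hoxc11 at most 2.

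**Figure D4:**
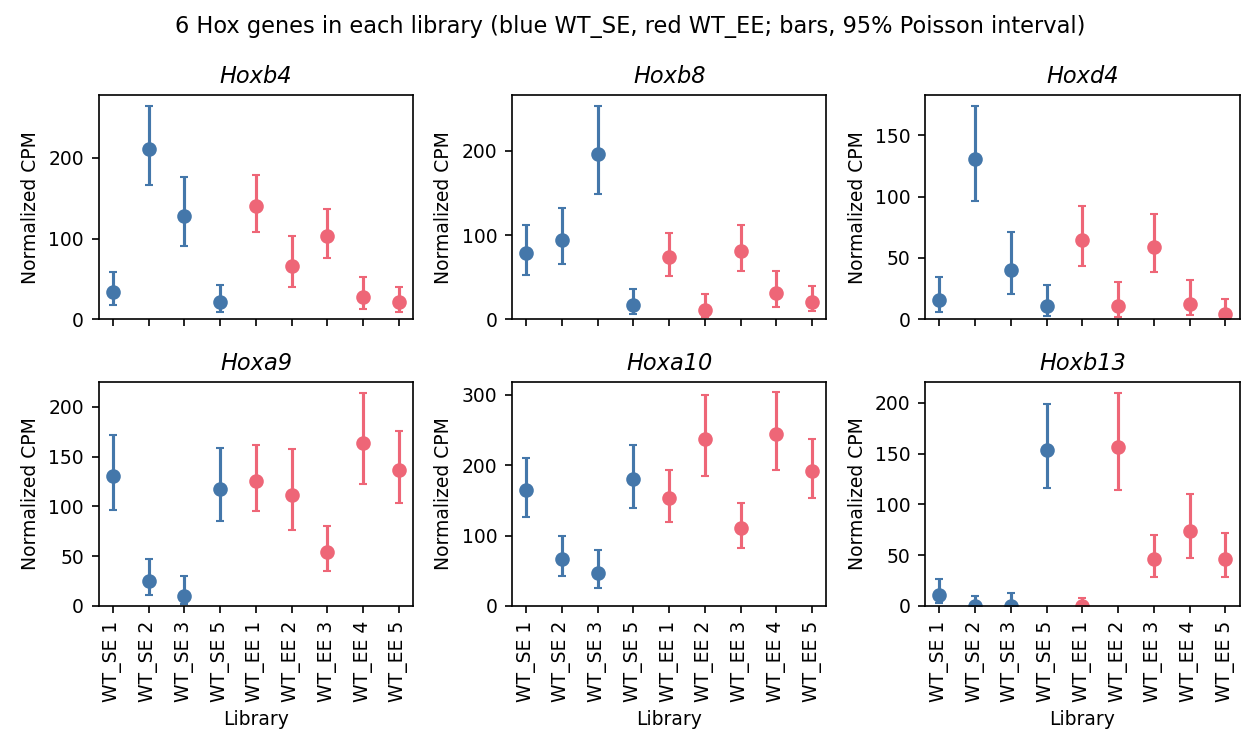
Level of Hoxb4, Hoxb8, Hoxd4, Hoxa9, Hoxa10 and Hoxb13 in each library, in normalized CPM, with 95% exact Poisson intervals that cover counting error only, WT_SE in blue and WT_EE in red. Hoxb13 has no count in WT_SE 2, WT_SE 3 and WT_EE 1, and Hoxa9 is lowest in WT_SE 3 and WT_SE 2.

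Some noncoding genes inside or beside the clusters were described after their values were seen. Hottip, a long noncoding RNA that starts next to Hoxa13 and is known to act on the posterior Hoxa genes, had 3, 0, 0 and 16 counts in WT_SE and 0, 7, 15, 12 and 11 in WT_EE. Its 3 libraries without a count were the same as those of Hoxb13, which lies on another chromosome. Gm27605, a short noncoding gene next to Hoxb13, had 0, 0, 0 and 11 counts in WT_SE and 0, 4, 1, 5 and 4 in WT_EE. Hoxa11os, which overlaps Hoxa11 on the opposite strand, had 40, 10, 1 and 60 counts in WT_SE and 34, 63, 41, 55 and 49 in WT_EE. In WT_SE 3 it had 1 count beside 6 of Hoxa11, and in WT_EE 2 it had 63 beside 15. With the strand setting unknown, molecules of Hoxa11 and Hoxa11os may not be told apart where they overlap, and this holds for each value of Hoxa11 given here. Gm11539, a processed pseudogene between Hoxb13 and Hoxb9, stood at 219, 153, 223 and 178 CPM in WT_SE and 136, 185, 138, 121 and 116 CPM in WT_EE. Of the 11 non-Hox genes inside or beside the clusters looked at in this way it was the only one called at an unadjusted p under 0.05 (7.65% of all genes were), lower in WT_EE and not run through the alternatives, with a log2 fold change of -0.49 ± 0.16 (SE) and an adjusted p of 0.329 (edgeR's quasi-likelihood F test, Benjamini-Hochberg adjusted).

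Promoters are shown for 5 genes whose levels moved together or apart in these libraries: Hoxb4, Hoxb8 and Hoxd4, which were high in WT_SE 2 and WT_SE 3, and Hoxa7 and Hoxa9, which were low there. The sequences are from RefSeq on GRCm38.p6, run from 250 bases before to 50 bases after the start site, and are printed 5′ to 3′ on the strand of the gene. Of the 39 Hox genes, 22 matched an entry in that table, with 24 promoters. Capitals mark TTTATG or its reverse complement, the core motif of the CDX factors, which act upstream of Hox genes in the embryo.
Hoxa7, chr6:52218524-52218823, minus strand: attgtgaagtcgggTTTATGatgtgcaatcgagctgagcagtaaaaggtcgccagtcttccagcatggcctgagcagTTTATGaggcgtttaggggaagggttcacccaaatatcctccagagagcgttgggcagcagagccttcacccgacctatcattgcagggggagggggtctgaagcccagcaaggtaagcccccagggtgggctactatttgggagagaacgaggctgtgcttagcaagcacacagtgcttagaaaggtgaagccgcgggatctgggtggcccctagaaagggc
Hoxa9, chr6:52227321-52227620, minus strand: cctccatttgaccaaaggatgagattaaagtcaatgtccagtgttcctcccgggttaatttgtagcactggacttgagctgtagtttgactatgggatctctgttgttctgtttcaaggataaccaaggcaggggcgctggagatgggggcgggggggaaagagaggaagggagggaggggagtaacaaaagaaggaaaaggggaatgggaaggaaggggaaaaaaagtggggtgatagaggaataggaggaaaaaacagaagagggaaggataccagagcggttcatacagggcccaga
Hoxb4, chr11:96318017-96318316, plus strand: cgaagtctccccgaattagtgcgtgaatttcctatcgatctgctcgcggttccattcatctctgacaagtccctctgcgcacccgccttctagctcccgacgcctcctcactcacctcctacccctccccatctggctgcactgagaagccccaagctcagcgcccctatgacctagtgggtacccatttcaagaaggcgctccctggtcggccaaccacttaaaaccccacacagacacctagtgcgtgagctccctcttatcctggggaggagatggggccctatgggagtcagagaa
Hoxb8, chr11:96281655-96281954, plus strand: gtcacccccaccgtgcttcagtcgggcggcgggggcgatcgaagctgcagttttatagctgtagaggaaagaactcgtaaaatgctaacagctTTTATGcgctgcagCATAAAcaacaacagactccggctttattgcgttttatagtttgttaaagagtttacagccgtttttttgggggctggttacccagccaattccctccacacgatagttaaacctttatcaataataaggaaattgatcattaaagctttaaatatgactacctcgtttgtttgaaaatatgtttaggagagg
Hoxd4, chr2:74721728-74722027, plus strand: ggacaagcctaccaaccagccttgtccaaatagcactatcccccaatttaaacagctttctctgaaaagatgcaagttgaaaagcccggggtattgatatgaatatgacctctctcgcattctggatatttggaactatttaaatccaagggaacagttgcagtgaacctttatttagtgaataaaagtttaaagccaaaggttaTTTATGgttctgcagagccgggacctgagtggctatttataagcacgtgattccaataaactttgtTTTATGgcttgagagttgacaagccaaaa

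The motif TTTATG was found on either strand in 5 of the 24 Hox promoters, and in 11.9% of all 32851 promoters of the same length. Hoxa7, Hoxb8 and Hoxd4 each held 2 matches, and Hoxa9 and Hoxb4 held none in these windows. A motif of paired Hox and PBX factors, TGATTNAT, was found in 2 of the 24 Hox promoters, those of Hoxa2 and of the downstream start of Hoxd11, and in 3.22% of all promoters. Among the printed promoters, TTTATG was present in Hoxb8 and Hoxd4, which were high in WT_SE 2 and WT_SE 3. It was also present in Hoxa7, which was low there. Libraries made from transcript ends do not show which start site was used.

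For the environment, 30 of the 39 Hox genes passed the filter of at least 4 CPM in at least 1 library and were tested among 17441 genes. At an unadjusted p under 0.05, 7 Hox genes were called, against 7.65% of all genes tested. Hoxa9, Hoxa10 and Hoxa11 were higher in WT_EE, and Hoxb3, Hoxb8, Hoxc6 and Hoxd11 were lower. No Hox gene had an adjusted p under 0.05 in edgeR's quasi-likelihood F test, Benjamini-Hochberg adjusted, against 0.0401% of all genes, and the smallest adjusted p among them was 0.425. DESeq2 and limma-voom also gave 0 adjusted calls, with 2 and 6 unadjusted ones, against 3.69% and 7.78% of all genes in those fits. For no Hox gene did the normalized values of the environments lie fully apart, against 2.58% of all genes tested. The median log2 fold change of the 30 Hox genes was -0.03, and that of all genes was 0.01.

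Hoxa11 had the largest log2 fold change among the Hox genes given by library, 0.74 ± 0.28 (SE), from 42.0 ± 21.0 CPM in WT_SE (SD, n = 4) to 71.2 ± 22.9 CPM in WT_EE (SD, n = 5; two-sided exact permutation p = 0.0873). Hoxa9 followed with 0.67 ± 0.33 (SE), from 70.8 ± 62.0 to 118 ± 40.5 CPM (exact permutation p = 0.19). Both ranges overlapped, for Hoxa11 through WT_SE 1 and for Hoxa9 through WT_SE 1 and WT_SE 5. At the other end, Hoxc6 had -1.45 ± 0.69 (SE), from 14.8 ± 10.9 to 4.71 ± 4.42 CPM (exact permutation p = 0.103), on counts close to the floor. Hoxb8 had -1.02 ± 0.38 (SE), from 96.4 ± 74.6 to 43.3 ± 31.8 CPM (exact permutation p = 0.206). The lowest p that this permutation test can give with 4 and 5 mice is 0.00794. Of the other genes called, Hoxa10 had a log2 fold change of 0.64 ± 0.24 (SE), Hoxb3 -0.61 ± 0.29 and Hoxd11 -0.97 ± 0.36.

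**Figure D5:**
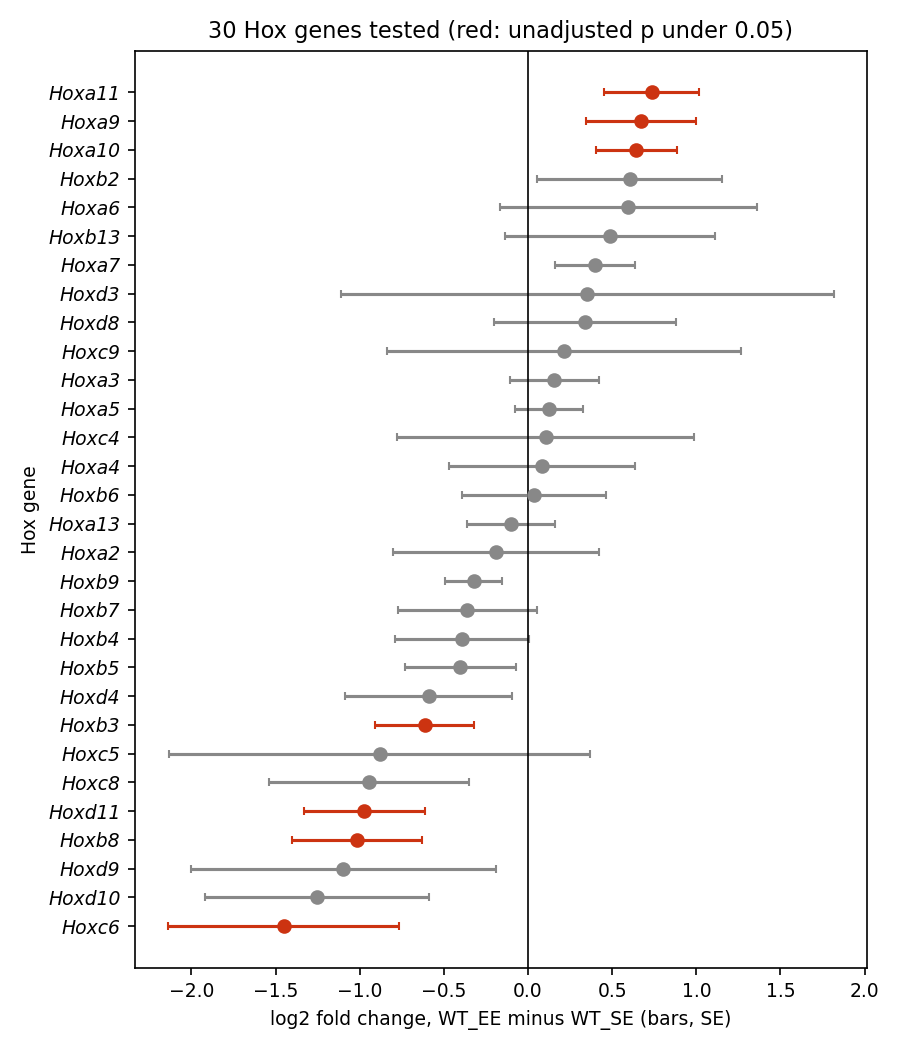
log2 fold change of the 30 Hox genes tested, WT_EE minus WT_SE, with bars of 1 SE, ordered by size. Red points mark the 7 genes with an unadjusted p under 0.05, Hoxa9, Hoxa10 and Hoxa11 on the higher side and Hoxb3, Hoxb8, Hoxc6 and Hoxd11 on the lower side, and none of them passed adjustment.

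Which genes were called changed when single libraries were left out, and so did the share of all genes called. Without WT_SE 3, 1 Hox gene was called, Hoxd11, against 5.19% of all genes. Without WT_EE 5 there were 4 calls (7.18% of all genes), and without WT_SE 5 there were 12 (9.14% of all genes). Hoxa11 and Hoxb8 lost their call without WT_SE 3, where the log2 fold changes were 0.54 and -0.44, and Hoxd11 lost its call without WT_SE 2 (-0.56). Hoxa10 lost its call without WT_SE 2 or WT_SE 3 (0.42 to 0.45). Hoxa9 (0.36 to 0.65 where lost) and Hoxb3 (-0.50 to -0.37) lost theirs without WT_SE 2, WT_SE 3, WT_EE 4 or WT_EE 5, Hoxa9 also without WT_EE 1 and Hoxb3 also without WT_EE 2. Hoxc6 lost its call without WT_SE 1, WT_SE 2, WT_SE 3, WT_EE 2 or WT_EE 5 (-1.49 to -1.11). Some calls were thus lost with the fold nearly unchanged, as for Hoxc6 without WT_SE 1 (-1.49) and Hoxa9 without WT_EE 1 (0.65). With only the 7 libraries ending L2, 5 Hox genes were called, Hoxa9, Hoxa10, Hoxa11, Hoxd10 and Hoxd11, against 3.98% of all genes. With the ending as a covariate 4 were called, 2 of them among the 7, against 3.94% of all genes. When the level of Slc10a2 was added to the model as a covariate, a choice made after seeing the data, 2 Hox genes were called, Hoxa11 and Hoxb6, and 6.66% of all genes. The log2 fold changes of the 7 genes were nearer to 0 in that fit, at 0.32 for Hoxa9, 0.28 for Hoxa10, 0.63 for Hoxa11, -0.17 for Hoxb3, -0.48 for Hoxb8, -0.96 for Hoxc6 and -0.64 for Hoxd11. Of the WT_SE mice 2 of 4 and of the WT_EE mice 2 of 5 were rich in Slc10a2, and how far this imbalance enters the environment differences was not tested further.

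Hoxb13 shows how 1 mouse can set such a result. With all libraries its log2 fold change was 0.49 ± 0.62 (SE), and WT_SE 5 held 56 of the 60 counts of the WT_SE mice. Without WT_SE 5 the log2 fold change was 3.85 with an adjusted p of 0.0269 (edgeR's quasi-likelihood F test, Benjamini-Hochberg adjusted). In that fit 37 of all 17303 genes passed adjustment. Of the WT_EE mice 4 of 5 had 20 or more counts, against 1 of 4 WT_SE mice.

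Genes that work with or upstream of Hox genes were counted from lists, and each count stands against the 7.65% of all genes called, or 3.98% with only the libraries ending L2. Among the cofactors of the TALE homeodomain class, which bind DNA beside Hox proteins, 2 of 8 tested were called (7.65% of all genes), both higher in WT_EE. Pbx3 stood at 86.1, 80.8, 50.7 and 107 CPM in WT_SE and 104, 160, 122, 201 and 118 CPM in WT_EE. Its log2 fold change was 0.75 ± 0.21 (SE; exact permutation p = 0.0238) with an adjusted p of 0.199 (edgeR's quasi-likelihood F test, Benjamini-Hochberg adjusted), which ranged from 0.019 to 0.996 over 20 alternatives, in all of which the unadjusted p was under 0.05. The environments overlapped only through WT_SE 5 and WT_EE 1. Meis2 had a log2 fold change of 0.42 ± 0.19 (SE), and its call was lost without WT_SE 1, WT_SE 3, WT_EE 2 or WT_EE 4 (log2 fold change 0.28 to 0.38) and with only the libraries ending L2 (0.12), and was kept in 11 of 20 alternatives.

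Of the ParaHox and Evx genes, relatives of the Hox genes outside or at the ends of the clusters, 2 of 5 tested were called, against 7.65% of all genes. Cdx2, the factor that sets intestinal identity in epithelium and acts upstream of Hox genes in the embryo, stood at 117, 94.7, 108 and 104 CPM in WT_SE and 71.2, 45.3, 56.8, 83.5 and 74.0 CPM in WT_EE. Every WT_EE mouse lay below every WT_SE mouse (exact permutation p = 0.00794, the smallest possible), against 2.58% of all genes tested with environments apart. The log2 fold change was -0.67 ± 0.20 (SE), with an adjusted p of 0.244 (edgeR's quasi-likelihood F test, Benjamini-Hochberg adjusted), which ranged from 0.0995 to 0.996 over 20 alternatives. In all 20 the unadjusted p was under 0.05, and the log2 fold change ranged from -0.76 to -0.56. Pdx1, a factor of pancreas and duodenum, was also called, but on 0 to 3 counts, and no fold is given.

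Among 15 Polycomb genes, whose products keep Hox genes silent, 1 was called higher and 2 lower, against 7.65% of all genes called. Phc2, a subunit of Polycomb repressive complex 1, stood at 62.6, 61.3, 44.0 and 49.2 CPM in WT_SE and 90.7, 94.1, 107, 95.9 and 87.9 CPM in WT_EE. All WT_EE mice lay above all WT_SE mice (exact permutation p = 0.00794), against 2.58% of all genes tested with environments apart. The log2 fold change of Phc2 was 0.80 ± 0.21 (SE), and the unadjusted p stayed under 0.05 in all 20 alternatives. Bmi1, another subunit of that complex, went the other way, at 47.0, 33.4, 44.0 and 35.5 CPM in WT_SE and 15.1, 27.9, 26.2, 30.9 and 27.8 CPM in WT_EE. The environments did not overlap for Bmi1 either (exact permutation p = 0.00794), but its call, with a log2 fold change of -0.66 ± 0.30 (SE), was lost without WT_SE 1, WT_SE 3 or WT_EE 1, where the log2 fold change was -0.61 to -0.50. It was kept in 14 of 20 alternatives, and was also lost with DESeq2 (-0.67), with the ending as a covariate (-0.45) and with only the libraries ending L2 (-0.44). Suz12, of Polycomb repressive complex 2, had a log2 fold change of -0.40 ± 0.18 (SE), and was not called with only the libraries ending L2 (-0.08) nor without WT_SE 1, WT_SE 3, WT_EE 2 or WT_EE 4 (-0.35 to -0.30), and was called in 10 of 20 alternatives. With only the libraries ending L2, 1 gene of the Polycomb list was called, against 3.98% of all genes.

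None of 9 Trithorax genes, which keep Hox genes active, was called, and 1 was called with only the libraries ending L2 (3.98% of all genes). Of 10 tested genes of retinoic acid synthesis, breakdown and reception, 2 were called, against 7.65% of all genes, and 0 with only the libraries ending L2, against 3.98%. Retinoic acid switches on the low-numbered Hox genes in the embryo, and its synthesis needs the Aldh1a enzymes. Aldh1a1 stood at 279, 298, 396 and 153 CPM in WT_SE and 266, 167, 223, 142 and 150 CPM in WT_EE, with a log2 fold change of -0.54 ± 0.19 (SE; exact permutation p = 0.103). Its lowest libraries, WT_EE 4, WT_EE 5, WT_SE 5 and WT_EE 2, were also the 4 lowest for Hoxb8, in another order. The same 4 libraries had the fewest counts of Slc10a2, and no relation was tested. The call of Aldh1a1 was lost without WT_SE 3 (log2 fold change -0.33) and with only the libraries ending L2 (-0.21). It was also lost with the ending (-0.23) or the level of Slc10a2 (-0.28) as a covariate, and was kept in 16 of 20 alternatives. Aldh1a2 stood at 10.4, 11.1, 6.76 and 21.9 CPM in WT_SE and 15.1, 66.2, 21.9, 30.9 and 37.0 CPM in WT_EE, with a log2 fold change of 1.32 ± 0.43 (SE; exact permutation p = 0.0556). It was called in 16 of 19 alternatives and not with only the libraries ending L2, where its log2 fold change was 0.97. With the ending (0.96) or the level of Slc10a2 (0.84) as a covariate its call was lost too. None of the 16 tested genes of the list of non-Hox genes beside the clusters was called, with a median log2 fold change of 0.04. No gene of these lists passed adjustment with the filter of 4 CPM and all 9 libraries, and Pbx3 did when no filter beyond 1 count was set.

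The levels of cell type markers bear on a tissue mixture. Smooth muscle markers, all 8 of 8 with counts and led by Acta2, summed to 2328, 1963, 2002 and 2466 CPM in WT_SE and 2010, 3542, 1913, 3476 and 2397 CPM in WT_EE. The 4 libraries rich in Slc10a2 were thus the 4 lowest for smooth muscle. Endothelial markers, 5 of 5 with counts and led by Kdr, summed to 180, 128, 108 and 189 CPM in WT_SE and 155, 209, 160, 229 and 171 CPM in WT_EE. The same 4 libraries were again the lowest for this sum. They were not for Kdr alone, at 97.2 CPM in WT_EE 1 and 91.4 CPM in WT_SE 1. Epithelial markers, 9 of 9 with counts and led by Cdh1, varied less, from 2523 to 3507 CPM. Fibroblast markers (7 of 7, led by Col1a2) ranged from 1008 to 1600 CPM and enteric neuron markers (7 of 7, led by Stmn2) from 215 to 488 CPM. Markers of B and plasma cells (4 of 6, led by Jchain) ranged from 247 to 369 CPM, and those of other leukocytes (5 of 5, led by Lyz2) from 108 to 244 CPM. Cd79a and Mzb1 were not among the genes listed for any library and are taken as 0. The part of tissue make-up in the Hox differences was not tested.

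Genes whose levels most resembled the summed posterior Hox genes were found among 5800 genes with a mean of at least 20 counts, as a description over the 9 libraries. Pearson's r of log2(CPM + 1) was 0.989 for Igfbp7, a secreted protein of vessels and stroma, 0.981 for Guca2a, the guanylin gene of colon epithelium, and 0.960, 0.956 and 0.954 for Chp2, Tmprss2 and Fam214b. Igfbp7 ranged from 108 to 235 CPM and Guca2a from 375 to 565 CPM. The most opposed were Chga, a granule protein of enteroendocrine cells (r = -0.960), Chn2 (-0.948), Frk (-0.942), Znrf2 (-0.939) and Nceh1 (-0.930). Chga ranged from 64.9 to 277 CPM. Without the 2 libraries farthest from each gene's median, r was 0.905 to 0.979 for the 5 most alike and -0.904 to -0.793 for the 5 most opposed, weakest for Nceh1. The genes were picked as the extremes of 5800 over 9 libraries that fall into separate ranges of Slc10a2, so no relation was tested.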

How the data were processed

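RNA of upper colon from 9 wild-type mice was used. The authors made 3′ libraries with the QuantSeq kit and deposited counts of molecules per gene, whole and not normalized. The submitters' processing notes name fastp 0.20.0, STAR 2.7.0f, featureCounts 1.6.0 and UMI-tools, and the build GRCm38.p6, and the strand setting of the counting is not given in the sources used here. Totals were 295535 to 454043 counts per library.

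Symbols and positions came from GENCODE mouse release M21 on GRCm38. Tests were run on genes that reached 4 CPM in 1 library or more, in R 4.3.3 with edgeR 4.0.16 (TMM, quasi-likelihood F test, environment as the only term), and p-values were adjusted over all genes tested by the Benjamini-Hochberg method. Single genes were also compared by two-sided exact permutation tests of mean CPM over 126 splits. The edgeR steps were tested on simulated data in which every gene had the same spread between mice. The median Hox gene varied more than was simulated, so that test says little about these genes. Python 3.11.15 with numpy 2.4.6, pandas 2.3.3, scipy 1.17.1 and matplotlib 3.10.9 did the rest.

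Named are all Hox genes, with values by library for those with more than 3 counts in at least 5 libraries and those called, tests for the 2 largest and 2 smallest log2 fold changes among these, the 5 genes most and the 5 least like the posterior Hox sum, and called genes of 6 related lists. Members and lists were chosen with earlier results of these data known. Noncoding neighbours and the printed promoters were chosen after values were seen. Alternatives were other filters, normalizations and tests (DESeq2 1.42.0, limma-voom with limma 3.58.1), blocking by mouse number, a term for how the library name ends, and each mouse left out. The Slc10a2 covariate, and the alternatives for related genes, were added after seeing the data. Planned correlations with marker sums are not given, because the libraries fall into separate ranges of Slc10a2.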

Additional observations from a re-analysis of the deposited data

Results flagged for a closer look

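For 54 sets of values, each the level of a Hox gene, a cluster sum or the posterior share in an environment, a mouse far from the others was looked for by Dixon's ratio of the gap to the range, and 2 sets held one. Chance gives about 1 in 20 such sets, here 2.7. Hoxb13 in WT_SE 5 was at 153 CPM, against 0 to 10.4 CPM in the other WT_SE mice. The summed Hoxc cluster in WT_SE 5 was at 10.9 CPM, against 44.4 to 50.7 CPM in the other WT_SE mice, from 4 counts against 15 to 17. WT_SE 5 was also the WT_SE mouse with the fewest counts of Slc10a2.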

How the results depend on the processing

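The number of Hox genes with an unadjusted p under 0.05 was 7 (7.65% of all genes), and 3 with edgeR's filterByExpr (9.36%), 2 with the DESeq2 Wald test (3.69%), 4 when the ending of the library name entered as a covariate (3.94%) and 2 with the level of Slc10a2 as a covariate (6.66%), the last chosen after seeing the data. With 1 mouse left out it ranged from 1 to 12, with 5.19% to 9.14% of all genes. The number with an adjusted p under 0.05 was 0, beside 7 of all 17441 genes. It was 2 (Hoxa10 and Hoxb8) without a filter beyond 1 count, beside 143 of all 22262 genes, and 0 to 1 with 1 mouse left out, beside 0 to 48 of all genes. With filterByExpr the log2 fold change of Hoxb8 stayed at -1.02, and with the ending as a covariate it was -0.26. The cause of these moves was not tested. The 7 called Hox genes kept their direction in each alternative that gave a value (Hoxc6 did not pass filterByExpr). Hoxa11 kept its call in 19 of 20 alternatives, Hoxd11 in 18, Hoxa10 in 15, Hoxb8 in 13, Hoxa9 in 10 and Hoxb3 in 8, and Hoxc6 in 9 of 19. The 35 Hox genes with a count became 18 when a count was required in every library, and 33 to 35 with 1 mouse left out. The mean posterior share of 44.1% was 26.9% for groups 10 to 13 and 42.5% to 46.2% with 1 mouse left out. With libraries of at most 454043 counts, genes at or under 3 counts cannot be compared.

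With the mouse number as a replicate block over numbers 1, 2, 3 and 5, 8 Hox genes were called at an unadjusted p (6.64% of all genes) and 1, Hoxb8, after adjustment, beside 77 of all 17300 genes. Mice of the same number are different animals, their deviations correlated by -0.0222 to 0.152, and none of the 4 WT_SE mice matched its own number best.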
